A study of Homo sapiens with 6 samples.

Results

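A set of 10 components of WNT signalling was followed through DDX18 depletion in 2 human embryonic stem cell lines: the ligands WNT3 and WNT5A, the receptor FZD7, the R-spondin receptor LGR5, the secreted antagonist DKK1, the feedback inhibitors AXIN2 and NKD1, the transcription factor LEF1, and the target genes SP5 and TBXT. They were chosen by gene symbol, with earlier results of these data known, and are 10 of the 17929 genes in the deposited expression table. Shares of all genes are therefore given below for scale and do not test the 10 genes as a set. All 10 were among the 17768 genes that had enough signal to be tested. DDX18 is a DEAD-box RNA helicase, and the study asked about its part in keeping human embryonic stem cells in their state.

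The knockdown cells received virus carrying 1 of 2 short hairpin RNAs against DDX18 (shDDX18#1 or shDDX18#3), and the control cells received virus with a hairpin against luciferase (shLuc), a gene that human cells do not have. Each hairpin was used once in HES2 and once in H9, both established embryonic stem cell lines, which gave 4 knockdown libraries and 2 shLuc libraries. Both lines were kept on irradiated mouse embryonic fibroblasts, in a medium with serum replacement and bFGF, and RNA was taken on day 4. Each line therefore has only 1 control library, and no label states whether a line's libraries are separate cultures. The p-values thus describe at most the spread among the 6 libraries and nothing beyond it. For effects within a line, and for their difference, that spread comes from the knockdown libraries alone, as a single shLuc library has none.

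In WNT signalling, a secreted ligand binds a Frizzled receptor and its co-receptor. In the canonical branch this stabilises beta-catenin, which enters the nucleus and activates genes through TCF/LEF factors. Several of those genes encode inhibitors of the pathway, so that AXIN2, NKD1 and DKK1 serve both as readouts and as negative feedback. In pluripotent cells WNT signalling is known for driving entry into the primitive streak, the embryonic structure that TBXT (Brachyury) marks.

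TCF/LEF factors recognise a short element, searched here on both strands as CTTTG followed by AA, AT, TA or TT. The 250 bases before the annotated start of each gene were read from RefSeq on GRCh38.p14, where 6 of the 10 genes matched, with 8 windows between them. The windows of the 3 genes that held the element are shown because the results below describe 2 of them, SP5 and DKK1, among the genes whose knockdown libraries lay on opposite sides of shLuc in the lines, and TBXT as a gene that was lower in both. Each is printed 5′ to 3′ along the gene's own strand, and the capitals mark the matches, with TTCAAAG the reverse-strand form of the first.
SP5, chr2:170715087-170715336, plus strand: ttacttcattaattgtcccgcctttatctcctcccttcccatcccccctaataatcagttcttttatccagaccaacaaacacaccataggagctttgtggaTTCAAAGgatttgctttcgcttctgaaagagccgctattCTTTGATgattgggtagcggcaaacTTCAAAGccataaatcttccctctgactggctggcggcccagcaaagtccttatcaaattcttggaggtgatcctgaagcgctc
DKK1, chr10:52314031-52314280, plus strand: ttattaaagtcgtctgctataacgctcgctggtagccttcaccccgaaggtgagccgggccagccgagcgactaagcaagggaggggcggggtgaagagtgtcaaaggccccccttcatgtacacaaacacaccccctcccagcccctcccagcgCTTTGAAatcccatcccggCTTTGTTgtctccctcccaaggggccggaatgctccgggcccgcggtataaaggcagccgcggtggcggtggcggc
TBXT, chr6:166167852-166168101, minus strand: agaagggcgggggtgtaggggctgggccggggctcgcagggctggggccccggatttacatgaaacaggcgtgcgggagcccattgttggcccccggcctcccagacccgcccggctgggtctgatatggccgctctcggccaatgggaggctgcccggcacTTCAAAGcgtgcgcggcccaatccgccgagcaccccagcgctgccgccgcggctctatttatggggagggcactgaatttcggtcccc
SP5 had 3 matches, beginning 148, 109 and 84 bases before the start, and DKK1 had 2, at 95 and 76 bases. TBXT had 1, at 88 bases, in the window of 1 of its 2 annotated starts. No match lay in the windows of LEF1, WNT3 or WNT5A. The element occurred in 4199 of all 35116 windows (12.0%), none of the forms overlaps another in these windows, and a match describes the letters only.

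Levels are normalized counts per 1e+06 reads (CPM) as deposited, and fold changes and their standard errors (SE) on the log2(CPM + 1) scale from limma. A gene was called at a Benjamini-Hochberg adjusted p under 0.05 over all genes tested. Libraries held between 2668179 and 4271741 reads, so that 1 read was worth 0.224 to 0.408 CPM and a floor of 3 reads lay between 0.671 and 1.23 CPM. The lowest value of any of the 10 genes rested on 12 reads (TBXT in H9 shDDX18#3) and the highest on 838 reads (FZD7 in H9 shLuc). DDX18 itself stood at 39.3 and 60.4 CPM in HES2 shDDX18#1 and shDDX18#3, against 161 CPM in HES2 shLuc, and at 19.2 and 47.3 CPM in the H9 knockdown libraries, against 153 CPM in H9 shLuc (log2 fold change -2.0, limma adjusted p = 0.0109, a call lost without either shLuc library). All 18 pluripotency markers examined were above 0 in every library, and 12 of them fell with knockdown, as did 6.26% of all genes tested. Of 20 fibroblast and feeder markers, 13 rose and 0 fell, where 9.60% of all genes rose and 6.26% fell. The summed level of these markers was between 5226 and 44000 CPM in the knockdown libraries and between 1038 and 3570 CPM in the shLuc libraries. The cells were sequenced in bulk, so fewer cells of a type and less RNA per cell cannot be told apart.

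Over both lines, WNT5A and LGR5 rose, TBXT fell, and the other 7 genes did not pass the test. The 2 called higher compare with 9.60% of all genes tested called higher, and the 1 called lower with 6.26% called lower. The median log2 fold change of the 10 genes was 0.14, beside -0.02 over all genes. The same 3 genes were those whose knockdown libraries did not overlap the shLuc libraries: WNT5A and LGR5 above, which 19.8% of all genes did, and TBXT below, which 20.9% did.

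**Figure D1:**
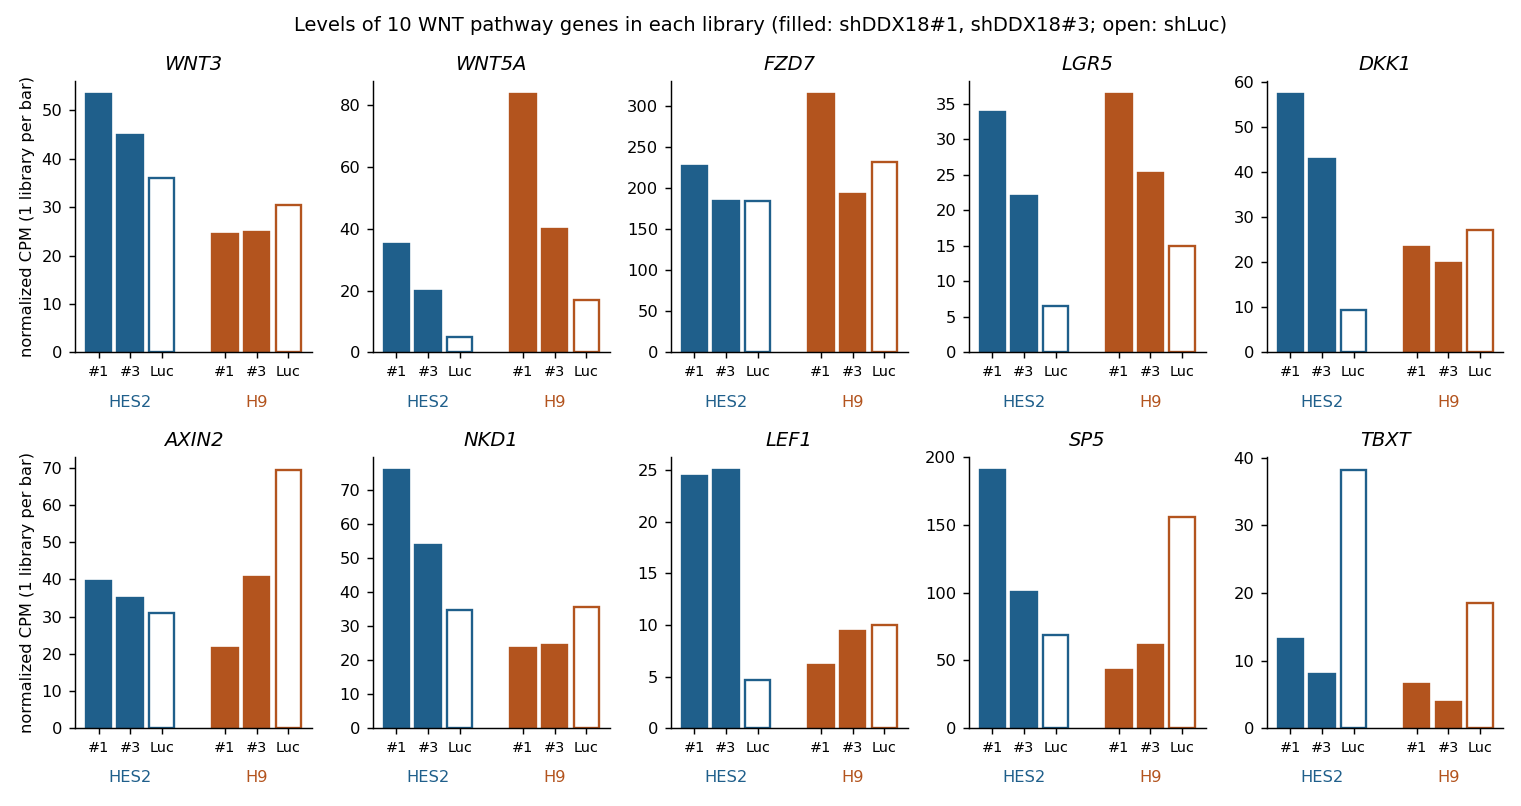
Normalized CPM of the 10 genes in each library, 1 bar per library, on linear axes that start at 0 and differ between panels. HES2 (blue) is left of H9 (brown) and filled bars (shDDX18#1, shDDX18#3) are left of the open shLuc bar. WNT5A and LGR5 are higher and TBXT is lower in all 4 knockdown libraries, and the filled bars of DKK1, LEF1, SP5, NKD1, AXIN2 and WNT3 are above the open bar in HES2 and below it in H9.

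WNT5A (ENSG00000114251), a ligand best known for non-canonical signalling and cell movement, had 35.1 and 20.0 CPM in HES2 shDDX18#1 and shDDX18#3, against 4.92 CPM in HES2 shLuc. In H9 the values were 83.7 and 39.9 CPM with the hairpins, in the same order, and 16.9 CPM with shLuc. All 4 knockdown libraries were above both shLuc libraries, and within each line the shDDX18#1 library was the higher. Its log2 fold change was 1.97 (SE 0.34, limma adjusted p = 0.0109), from 44.7 ± 27.4 CPM in the 4 knockdown libraries and 10.9 ± 8.46 CPM in the 2 shLuc libraries (SD). In the authors' deposited table the log2 fold change is 2.13. The order of the 6 libraries by WNT5A was the order by the summed level of the fibroblast and feeder markers, which stood at 6462 and 5226 CPM in the HES2 knockdown libraries, against 1038 CPM in HES2 shLuc, and at 44000 and 16897 CPM in the H9 knockdown libraries, against 3570 CPM in H9 shLuc. How many other genes share this order of libraries was not counted. COL1A1 alone gave 18386 CPM of the sum in H9 shDDX18#1. Within HES2, 17 of the 20 markers had positive log2 fold changes, while THY1 (-1.28), S100A4 (-1.21) and POSTN (-0.23) had negative ones. Of these 20 markers, 2 were at 0 in HES2 shDDX18#3 and 2 in HES2 shLuc, and 0 in the other libraries. Their part in the WNT5A result was not tested, nor was that of reads from the mouse feeder cells. With 1 shLuc library left out, the line that keeps its control alone gives the effect. The limma adjusted p of WNT5A was 0.133 from H9 alone and 0.0738 from HES2 alone, and it was 0.0771 without the line as a block.

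WNT3 (ENSG00000108379), a canonical ligand needed for the primitive streak in mouse embryos, had 53.4 and 44.8 CPM in the HES2 knockdown libraries and 36.0 CPM in HES2 shLuc. In H9 it had 24.5 and 25.0 CPM with the hairpins and 30.5 CPM with shLuc. The knockdown libraries thus lay above shLuc in HES2 and below it in H9, by small amounts. Over both lines the log2 fold change was 0.07 (SE 0.21, limma adjusted p = 0.840), with a 95% interval from -0.41 to 0.55.

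FZD7 (ENSG00000155760), a Frizzled receptor abundant in human embryonic stem cells, had the highest mean over the 6 libraries per kilobase of exon, with SP5 above it in 3 of them. It had 227 and 184 CPM in the HES2 knockdown libraries and 184 CPM in HES2 shLuc, and 314 and 193 CPM in the H9 knockdown libraries and 232 CPM in H9 shLuc. The shDDX18#1 library was the highest of each line, and shDDX18#3 was level with shLuc in HES2 and below it in H9. The log2 fold change was 0.12 (SE 0.21, limma adjusted p = 0.723), with a 95% interval from -0.35 to 0.59.

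LGR5 (ENSG00000139292), a receptor for R-spondins that strengthens WNT signalling and marks several kinds of stem cell, had 33.8 and 22.0 CPM in the HES2 knockdown libraries, against 6.48 CPM in HES2 shLuc. The H9 values were 36.3 and 25.3 CPM with the hairpins and 15.0 CPM with shLuc. No knockdown library overlapped a shLuc library, and with each hairpin the HES2 library was slightly below the H9 library. The log2 fold change was 1.45 (SE 0.30, limma adjusted p = 0.0191). A value of 1.52 stands in the authors' deposited table. The adjusted p moved to 0.0511 without H9 shLuc, to 0.193 without HES2 shLuc, to 0.0504 without HES2 shDDX18#1 and to 0.0518 in limma without the trend.

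DKK1 (ENSG00000107984), a secreted inhibitor that blocks the LRP co-receptors, had 57.3 and 42.9 CPM in HES2 shDDX18#1 and shDDX18#3, against 9.39 CPM in HES2 shLuc. In H9 it had 23.3 and 19.8 CPM with the hairpins and 27.1 CPM with shLuc. The HES2 knockdown libraries were the highest of the 6, HES2 shLuc was the lowest, and the 3 H9 libraries lay close together. Over both lines the log2 fold change was 0.98 (SE 0.50, limma adjusted p = 0.208).

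AXIN2 (ENSG00000168646), a scaffold of the complex that degrades beta-catenin and a widely used readout of canonical signalling, had 39.6 and 35.1 CPM in the HES2 knockdown libraries and 31.1 CPM in HES2 shLuc. In H9 it had 21.6 and 40.5 CPM with the hairpins, against 69.5 CPM with shLuc. H9 shLuc was the highest library and H9 shDDX18#1 the lowest. NKD1 (ENSG00000140807), which inhibits WNT signalling by binding Dishevelled, had 75.9 and 53.7 CPM in the HES2 knockdown libraries and 34.7 CPM in HES2 shLuc. Its H9 values were 23.7 and 24.3 CPM with the hairpins and 35.7 CPM with shLuc. Both shLuc libraries of NKD1 were thus nearly level, and the knockdown libraries of the lines lay on either side of them. Over both lines AXIN2 had a log2 fold change of -0.47 (SE 0.35, limma adjusted p = 0.383) and NKD1 one of 0.15 (SE 0.31, limma adjusted p = 0.760).

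LEF1 (ENSG00000138795), a DNA-binding partner of beta-catenin and itself a target gene, had 24.5 and 25.1 CPM in the HES2 knockdown libraries, against 4.69 CPM in HES2 shLuc. In H9 it had 6.13 and 9.40 CPM with the hairpins and 9.97 CPM with shLuc. The HES2 knockdown libraries stood apart from the other 4, which lay under 10 CPM. SP5 (ENSG00000204335), a zinc-finger repressor induced by WNT whose window above held the most matches, had 191 and 100.2 CPM in the HES2 knockdown libraries and 68.9 CPM in HES2 shLuc. In H9 it had 42.9 and 61.6 CPM with the hairpins, against 156 CPM with shLuc. Its highest value was in HES2 shDDX18#1 and its lowest in H9 shDDX18#1, so that the same hairpin gave both ends of the range. The log2 fold change over both lines was 0.91 for LEF1 (SE 0.51, limma adjusted p = 0.248) and -0.29 for SP5 (SE 0.52, limma adjusted p = 0.728).

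TBXT (ENSG00000164458), the T-box factor of the primitive streak and a direct WNT target, had 13.2 and 8.08 CPM in the HES2 knockdown libraries, against 38.2 CPM in HES2 shLuc. In H9 it had 6.53 and 3.89 CPM with the hairpins, against 18.5 CPM with shLuc. All 4 knockdown libraries were below both shLuc libraries, and in each line shDDX18#3 was the lower of the hairpins. The log2 fold change was -1.74 (SE 0.30, limma adjusted p = 0.0102). A value of -1.85 stands in the authors' deposited table. The adjusted p was 0.0996 without H9 shLuc, 0.124 without HES2 shLuc and 0.0592 without the line as a block. Of 17 other genes of the primitive streak and its derivatives, 3 rose and 5 fell, where 9.60% of all genes rose and 6.26% fell. Among them were GATA4 (log2 fold change 2.11) and NODAL (-0.91). The summed level of the 18 pluripotency markers was 2974 and 3653 CPM in the HES2 knockdown libraries, against 6642 CPM in HES2 shLuc, and 2442 and 3461 CPM in the H9 knockdown libraries, against 7066 CPM in H9 shLuc. Its part in the TBXT result was not tested.

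Set against each line's own shLuc library, the knockdown libraries of 6 of the 10 genes lay on opposite sides in the 2 lines. DKK1, AXIN2, LEF1, SP5, NKD1 and WNT3 were above shLuc in both HES2 knockdown libraries and below it in both H9 knockdown libraries, a pattern that 995 of 17768 genes (5.60%) had. The choice of the 10 genes with earlier results known limits what that share can show. By 95% intervals for the counting error of the reads, both H9 knockdown libraries overlapped H9 shLuc for DKK1, LEF1, NKD1 and WNT3. Both HES2 knockdown libraries overlapped HES2 shLuc for AXIN2, as did HES2 shDDX18#3 for WNT3. LEF1, for example, had 6.30 to 13.5 CPM in H9 shDDX18#3 and 6.98 to 13.8 CPM in H9 shLuc. Only SP5 had no overlap in either line. In HES2, 8 of the 10 genes were above shLuc with both hairpins, as were 39.0% of all genes, and 1, TBXT, was below with both, as were 42.9%. In H9, 2 genes were above with both hairpins (WNT5A and LGR5), as were 38.7% of all genes, and 7 were below with both, as were 39.8%. Over all genes the median difference of each knockdown library from its shLuc library lay between -0.03 and 0.00 on the log2 scale.

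**Figure D2:**
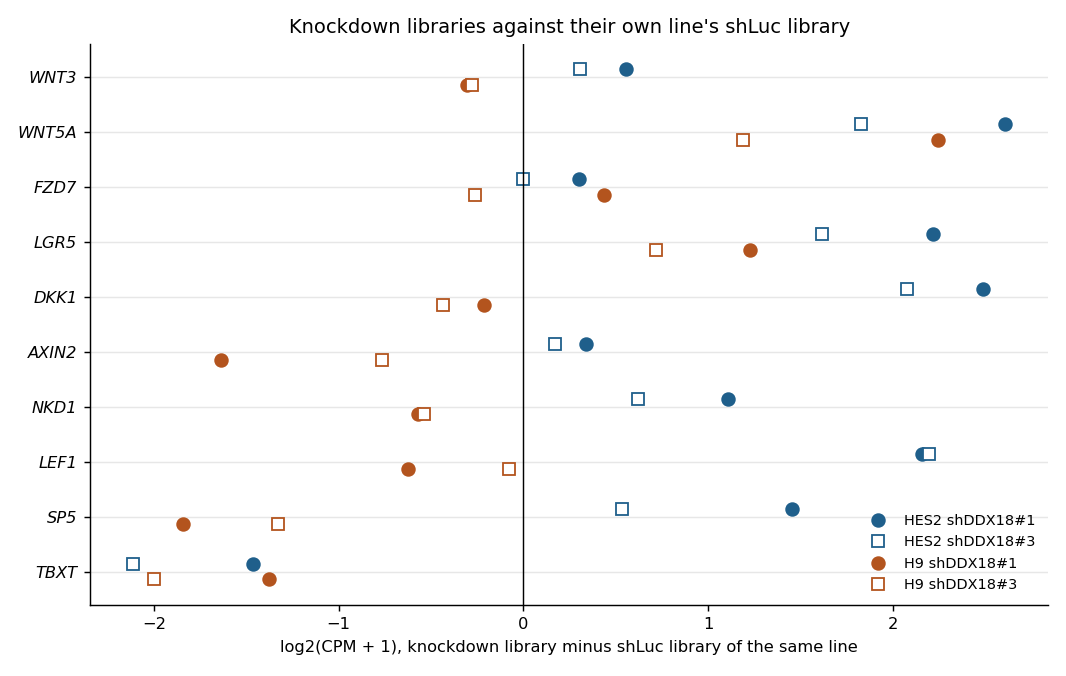
Difference of each knockdown library from the shLuc library of its own line, in log2(CPM + 1), for the 10 genes. HES2 (blue) is drawn above H9 (brown), with filled circles for shDDX18#1 and open squares for shDDX18#3, and the vertical line is no difference. The points of 6 genes (WNT3, DKK1, AXIN2, NKD1, LEF1, SP5) are right of the line in HES2 and left of it in H9, while TBXT is left and WNT5A and LGR5 are right of it in both.

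Within HES2, DKK1 and LEF1 rose, which made 2 of the 10 genes called higher, where 2.35% of all genes were called higher and 0.265% lower. DKK1 changed by 2.28 (SE 0.30, limma adjusted p = 0.0224) and LEF1 by 2.18 (SE 0.39, limma adjusted p = 0.0403). WNT5A (2.22), LGR5 (1.92), SP5 (1.00) and NKD1 (0.86) had positive values and TBXT a negative one (-1.79) that did not pass. Both calls were lost without HES2 shDDX18#1 (limma adjusted p = 0.239 for DKK1 and 0.334 for LEF1), and that of LEF1 also without HES2 shDDX18#3 (0.140). In limma without the trend the adjusted p was 0.0998 for DKK1 and 0.108 for LEF1, and LEF1 stood at 0.0566 with a pseudocount of 4 and at 0.0602 with quantile scaling.

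Within H9 none of the 10 genes passed, where limma called 0.878% of all genes higher and 0.0450% lower. At an unadjusted p under 0.05 there were 5 of the 10 and 3884 genes in all (21.9%), edgeR called 0 of the 10, and DESeq2 called WNT5A higher and SP5 lower. The lowest values were -1.69 for TBXT, -1.58 for SP5 and -1.20 for AXIN2, and the highest were 1.72 for WNT5A and 0.97 for LGR5. DKK1 and LEF1 stood at -0.33 and -0.35. DDX18, the gene targeted, changed by -2.30 in H9 and by -1.70 in HES2 and did not pass within either line. A gene that did not pass within a line is therefore not shown to be unchanged there.

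The difference between the lines was tested directly, as the knockdown effect in HES2 minus that in H9. DKK1 had a difference of 2.61 with a 95% interval from 1.60 to 3.62, SP5 one of 2.58 (1.24 to 3.92) and LEF1 one of 2.53 (1.24 to 3.82). Ranked over all genes, these lay at percentiles of 99.9, 99.9 and 99.8. AXIN2 followed with 1.46 (0.20 to 2.71) and NKD1 with 1.42 (0.47 to 2.37), while the intervals of WNT3 (0.72), LGR5 (0.94), WNT5A (0.50), FZD7 (0.06) and TBXT (-0.10) included 0. The median difference of the 10 genes was 1.18, beside 0.01 over all genes. As the 10 genes were chosen with earlier results known, this contrast is no test of the set. After adjustment limma called 0 of 17768 genes (0.00%), and the smallest adjusted p of any of the 10 was 0.935, so the difference is not established for any of them by this test. At an unadjusted p under 0.05 there were 5 of the 10 and 788 genes in all (4.43%). With edgeR 0 genes were called, and with DESeq2 10 were higher and 4 lower. SP5 was 1 of those called higher (2.67, DESeq2 adjusted p = 0.0419). Each line's effect is measured against its 1 shLuc library, so the line and that library cannot be told apart. The residual spread behind these intervals came from the hairpins within each line, with no spread of controls measured. In limma it was moderated towards a trend over all genes.

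**Figure D3:**
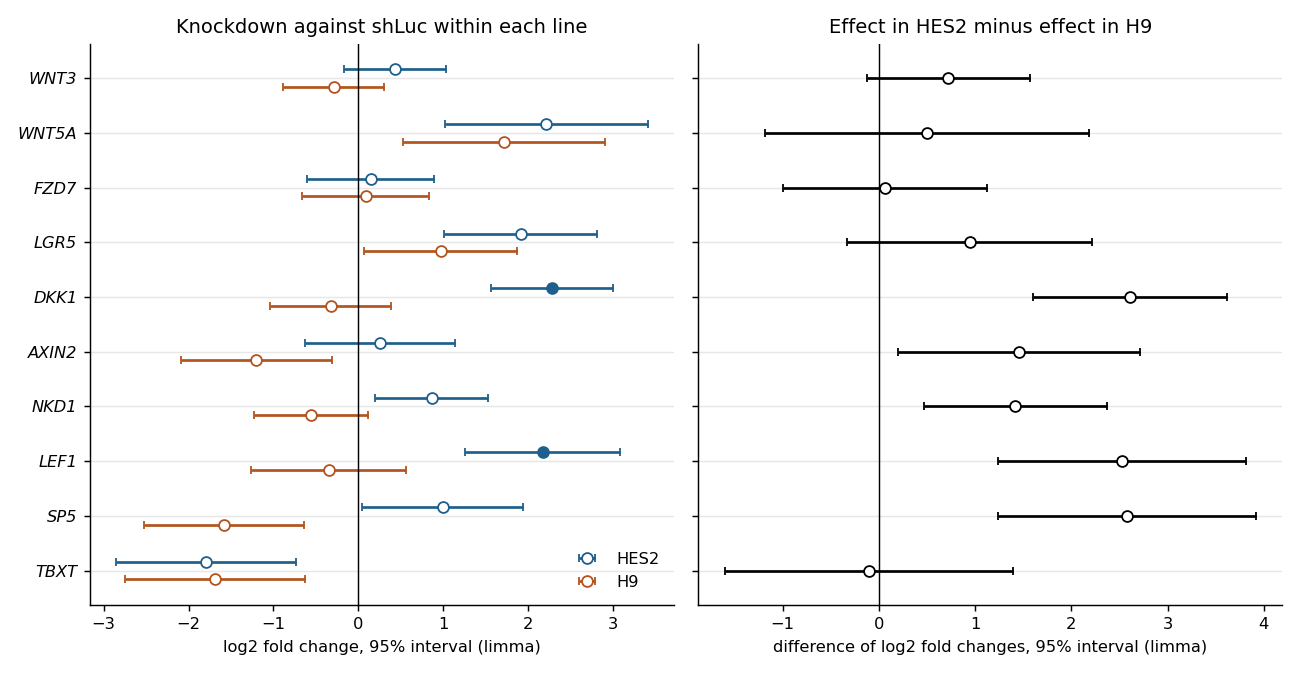
Left, log2 fold change of knockdown against shLuc within HES2 (blue, above) and H9 (brown, below), and right, the effect in HES2 minus that in H9, each with its 95% interval from limma. Filled points passed an adjusted p of 0.05: DKK1 and LEF1 in HES2 on the left, and none on the right. The intervals of DKK1, AXIN2, NKD1, LEF1 and SP5 on the right lie above 0.

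The shLuc libraries alone were higher in H9 for 8 of the 10 genes, as for 49.4% of all genes, with TBXT and WNT3 the exceptions. Among the 4 knockdown libraries, both HES2 libraries were above both H9 libraries for 6 genes (DKK1, LEF1, SP5, NKD1, WNT3 and TBXT), which 24.6% of all genes were. With the arm as a block and all 6 libraries, HES2 minus H9 was 0.94 for TBXT (SE 0.21, limma adjusted p = 0.0417) and -1.26 for WNT5A (limma adjusted p = 0.00681). These were 1 gene called higher and 1 lower of the 10, where 1.44% and 3.98% of all genes were. Of the fibroblast and feeder markers, 15 of 20 were also lower in HES2 and 0 higher, with a median of -1.59, and their part in the WNT5A difference was not tested. The call of TBXT was lost without any 1 of the knockdown libraries (adjusted p up to 0.307) and that of WNT5A without either shDDX18#3 library (up to 0.102). When 1 shLuc library was left out, the difference rested on the 4 knockdown libraries. Leaving out H9 shLuc or HES2 shLuc gives the same differences, so these settings are 1 comparison and not separate support. The shLuc library that stays is alone in its arm and adds no spread. Such a fit has fewer residual degrees of freedom than the 2 with all 6 libraries. It was then 1.58 for LEF1, 1.41 for SP5, 1.38 for NKD1, 1.17 for DKK1 and 0.96 for WNT3, each called higher in HES2 whichever shLuc library was left out and none called with all 6 libraries, and TBXT (0.90) was called without H9 shLuc only. Of all genes, 4.45% were called higher without H9 shLuc and 4.30% without HES2 shLuc. WNT5A was called lower in HES2 in both, at -1.09, as were 7.87% and 8.03% of all genes. WNT3 was the 1 gene of the 10 with all 3 HES2 libraries above all 3 H9 libraries, which 7.78% of all genes had.

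The hairpins were compared as shDDX18#1 minus shDDX18#3. WNT5A was 0.91 higher with shDDX18#1 (limma adjusted p = 0.151), TBXT 0.63 (0.322), LGR5 0.55 (0.422) and FZD7 0.50 (0.203), and none passed. DDX18 stood lower with shDDX18#1 in both lines (-0.93, limma adjusted p = 0.145). Over all genes limma called 0 (0.00%), with 2536 at an unadjusted p under 0.05. With edgeR 21 genes were called higher and 10 lower, and with DESeq2 76 and 37, none of the 10 among them. WNT5A passed only in fits without 1 shLuc library, which enters this comparison solely through the spread and the choice of genes tested. Its difference stayed at 0.91 there. Such a fit has fewer residual degrees of freedom than the 2 with all 6 libraries.

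Per kilobase of exon, the mean level over the 6 libraries was highest for FZD7, at 57.7 ± 12.9 CPM per kilobase, and SP5, at 50.2 ± 28.3 (SD). DKK1 (13.6), WNT3 (8.24), AXIN2 (7.57), TBXT (5.61), WNT5A (4.52) and LGR5 (4.41) followed, and LEF1 (2.48) and NKD1 (2.37) were lowest. The ranges of every pair of neighbours in this order overlapped. Exon lengths came from GENCODE on GRCh38 and sum all annotated exons, which for NKD1 come to 17.4 kilobases.

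Likeness between genes was measured as the root mean square difference of their log2(CPM + 1) profiles over the 6 libraries, each centred on its mean. Among the 10 genes NKD1 and WNT3 were closest (0.21), followed by DKK1 and LEF1 (0.34) and by SP5 and NKD1 (0.43). TBXT and WNT5A were farthest apart (2.07). Of 14076 genes with a mean of at least 3 CPM, the nearest to WNT5A was PDGFC (0.10), to DKK1 TMEM150C (0.19), to LEF1 MYLK3 (0.05), to SP5 PTCH1 (0.24) and to TBXT KRTCAP3 (0.24). None of the 10 was among the nearest 2 genes of another.

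The rest of the pathway was described from 8 lists by role, in the knockdown comparison over both lines. Of 103 genes tested besides the 10, 19 rose and 7 fell (25.2%), where 15.9% of all genes were called, 9.60% higher and 6.26% lower. Each of these 26 calls was lost in at least 1 alternative setting, and none changed sign in any. Without HES2 shLuc 23 of the 25 genes tested lost the call and without H9 shLuc 17 of 25, and 15 of 26 lost it without HES2 shDDX18#1 and 12 of 26 without HES2 shDDX18#3. The ligand carrier WLS, which escorts WNT proteins to the cell surface, had 271 and 194 CPM in the HES2 knockdown libraries, against 17.7 CPM in HES2 shLuc, and 153 and 86.2 CPM in the H9 knockdown libraries, against 37.4 CPM in H9 shLuc. Its log2 fold change was 2.61 (limma adjusted p = 0.00936). None of the other 11 ligands tested passed, with a median of 0.64.

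**Figure D4:**
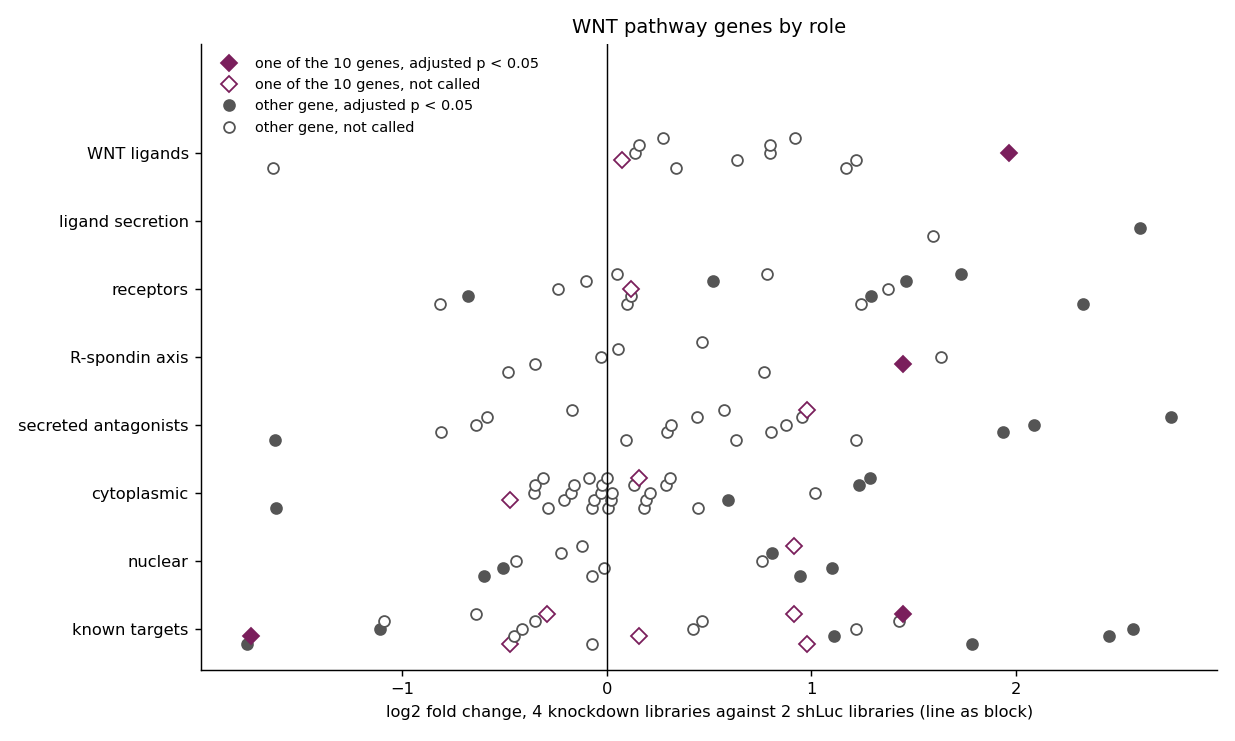
Log2 fold change of the 4 knockdown libraries against the 2 shLuc libraries (limma, line as a block) for 113 WNT pathway genes, in rows by role, where a gene in 2 lists appears in both. Diamonds are the 10 genes and circles the others, and filled symbols passed an adjusted p of 0.05. Filled symbols lie on both sides of 0, with WLS (2.61), FRZB (2.76) and MSX2 (2.57) farthest to the right.

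Of 15 other receptors, 5 rose and 1 fell. Over all genes, 9.60% rose and 6.26% fell, which stands beside each list here. FZD4 rose by 2.33, FZD1 by 1.73, ROR2, a receptor for WNT5A, by 1.46, and PTK7 by 0.52, while ROR1 changed by -0.68. FZD10 was also called, with 2.92 to 4.83 CPM in 3 knockdown libraries, 1.63 CPM in H9 shDDX18#1, and 0.89 and 0.55 CPM in HES2 shLuc and H9 shLuc. The call was lost in 8 of 16 alternatives for PTK7, 8 of 15 for FZD10, 6 of 16 for ROR1 and 5 of 16 for FZD1. Of 18 other genes listed as secreted antagonists, 3 rose and 1 fell. FRZB (2.76) and DKK3 (2.09) were higher and SFRP2, which binds WNT ligands, was lower (-1.62). DKK2 was called higher too, at 12.2 and 4.46 CPM in the HES2 knockdown libraries, against 0.671 CPM in HES2 shLuc, and 6.13 and 2.92 CPM in the H9 knockdown libraries, against 0.831 CPM in H9 shLuc, so that both shLuc values equal 3 reads, and its call was lost in 6 of 16 alternatives. Of 7 other genes of the R-spondin axis 0 passed.

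The cytoplasmic list groups genes by role and not by protein location. Of its 28 other genes, 3 rose (CSNK1G1, CXXC4 and VANGL1, by 1.29, 1.23 and 0.59) and FRAT2, which binds GSK3, changed by -1.62. Over all genes 9.60% rose and 6.26% fell, shares that this list is near and that apply to the nuclear and target lists too. Of 11 other nuclear components, PYGO1 (1.10), TLE4 (0.94) and BCL9L (0.81) rose, and TCF7L1 (-0.60), a TCF factor of embryonic stem cells, and TLE1 (-0.51), a co-repressor, fell. Of 16 other known targets, MSX2 (2.57), TNFRSF19 (2.45), MSX1 (1.79) and BAMBI (1.11) rose, and MYC (-1.11) fell. TBX6, a T-box gene of the paraxial mesoderm, was called lower, with all 4 knockdown libraries at or under 3 reads and 6.93 and 2.21 CPM in HES2 shLuc and H9 shLuc. The call was lost in 9 of 16 alternatives for TLE1, in 7 each for TLE4, VANGL1 and MSX1, in 6 for PYGO1, and in 5 each for TCF7L1 and BAMBI. The 16 targets had a median log2 fold change of 0.47 in HES2 and -0.23 in H9, beside -0.03 and -0.01 over all genes. Of the 16, 13 had a positive difference between the lines, with a median of 0.73 beside 0.01 over all genes. The test of that difference called 0 of the 16 and 0 of all genes, so it is not established for them. How many of all genes had a positive difference was not counted.

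The reads of a few of the 10 genes cannot be fully assigned. The library kit keeps no strand, and exons of DKK1, LEF1, LGR5 and NKD1 overlap antisense transcripts by 212, 279, 208 and 67 bases (PRKG1-AS1, LEF1-AS1, AC078860.1 and AC007608.1), each at 4.54 CPM or less in every library. In HES2 shDDX18#1, shDDX18#3 and shLuc, LEF1-AS1 had 2.90, 3.62 and 1.12 CPM, AC007608.1 4.18, 4.18 and 1.12, and AC078860.1 3.22, 3.90 and 0.447. PRKG1-AS1 had 0.322, 1.11 and 1.12 CPM there. In H9, AC078860.1 had 4.49, 4.54 and 1.38 CPM in the same order. The part of shared reads was not tested. AXIN2 shares 1316 bases of exon with AC004805.1 on its own strand.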

How the data were processed

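RNA sequencing libraries of 6 samples were made with a TruSeq RNA kit. Per the submitters' processing notes, Bowtie2 2.3.4.3, SAMtools 1.9, HTSeq 0.11.2, edgeR 3.26.8 and the build hg19 were used, without the role of each. The authors deposited a table of 17929 genes. It holds the normalized signal of each library and, for knockdown against control, the authors' log2 fold change, log2 abundance, likelihood ratio score, p-value and false discovery rate, from a model not given in the sources used here. The score, the abundance and the unadjusted p-value of the deposited table were not used.

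Every deposited signal (100% of values, tolerance 0.001) is a whole multiple of what 1 read is worth in that library, so the unit is CPM on a scaled library size. Depths and floors follow from those reads, and floors cover counting error only. The table names 15532 genes, another 2349 were named from a list of gene IDs, and 48 have no symbol.

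Values were tested as log2(CPM + 1) with limma 3.58.1 (trend) in R 4.3.3 on genes reaching 1 CPM in 2 or more libraries, which left out 161. Knockdown against shLuc and the hairpins were fitted with cell line as a block, which is also the replicate number, the effects within lines and their difference with an interaction, and HES2 minus H9 with the arm as a block. Each model was fitted to all 6 libraries with 1 estimate of spread per gene, on 3 residual degrees of freedom in the first model and 2 in the others. With the interaction, each shLuc library is alone in its group and adds nothing to that spread. The 2 degrees of freedom are then the difference between the hairpins within each line. The p-values and intervals of that model hold no measured spread of controls. In every model limma moderated each gene's spread towards a trend over all genes, which gave 6.97 to 8.41 total degrees of freedom. The pairing comes from the labels: libraries with the same number are the same cell line.

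On reads recovered from the deposited signal, edgeR 4.0.16 and DESeq2 1.42.0 were run as count tests. Further settings were a pseudocount of 0.25 or 4, no filter or 5 CPM, median-of-ratios and quantile scaling, no trend, no block, and leaving out each library. Leaving out a library lowers the residual degrees of freedom.

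The 10 genes, the lists and the alternatives were chosen with earlier results of these data known. All 10 genes are named. Of each pathway list by role, every other gene called in knockdown against shLuc is named, up to 6 a list, and of the marker lists up to 4 genes. Exon lengths and overlaps came from GENCODE v29 on GRCh38, and no hg19 positions were used.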

Additional observations from a re-analysis of the deposited data

Results flagged for a closer look

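For 6 of the 10 genes every HES2 knockdown library lay above its shLuc library and every H9 knockdown library below it. The counting intervals overlapped that of shLuc in both H9 knockdown libraries for DKK1, LEF1, NKD1 and WNT3, and in both HES2 knockdown libraries for AXIN2. The effect in HES2 minus that in H9 was 2.61 for DKK1, 2.58 for SP5, 2.53 for LEF1, 1.46 for AXIN2, 1.42 for NKD1 and 0.72 for WNT3, on the log2 scale. The interaction term that tests this difference did not pass for any of them (limma adjusted p between 0.935 and 1.00). The same 6 genes except AXIN2 were called higher in HES2 than in H9 when only the 4 knockdown libraries decided the comparison, with values from 0.96 to 1.58, where 4.45% of all genes were called higher without H9 shLuc and 4.30% without HES2 shLuc. With all 6 libraries none of these 5 was called (limma adjusted p between 0.0698 for WNT3 and 0.760 for DKK1). The 6 genes were picked for high HES2 and low H9 knockdown libraries relative to shLuc, so this is no separate evidence. AXIN2 was 0.32 there (limma adjusted p = 0.436 without H9 shLuc and 0.422 without HES2 shLuc).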

How the results depend on the processing

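With 1 control library per line, a single library decides several results, and no fit can tell that library from its line. Depth limits TBXT, at 12 reads in its lowest library, and LEF1, at 15. Without the replicate block, knockdown called 790 genes higher and 409 lower, with 1 and 0 of the 10 genes, in place of 1706 and 1113, with 2 and 1. Without the trend the counts were 886 and 342, with WNT5A the 1 of the 10 called higher and LGR5 lost (adjusted p = 0.0518). LGR5, TBXT and WNT5A kept their direction in all 16 alternatives.

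Within H9, 156 genes were called higher and 8 lower. The counts were 67 and 5 with a pseudocount of 4, 82 and 3 with a filter of 5 CPM, 90 and 4 with median-of-ratios scaling, 0 and 0 with quantile scaling, with no trend and with edgeR, and 576 and 114 with DESeq2, which called 1 of the 10 genes higher and 1 lower. With a pseudocount of 0.25, 5 genes were called lower. Within HES2, 418 and 47 became 183 and 29 with a pseudocount of 4, 257 and 23 with quantile scaling (1 of the 10 genes called higher in each, DKK1), 0 and 0 with no trend (0 of the 10), and 628 and 127 with DESeq2 (4 of the 10: DKK1, LEF1, LGR5 and WNT5A). With edgeR 271 genes were called higher.

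Between the lines' effects, DESeq2 called 10 genes higher and 4 lower, with 1 of the 10, and gave TBXT 0.0024 in place of -0.10. Between the hairpins the counts were 9 and 9 with quantile scaling, 21 and 10 with edgeR, and 76 and 37 with DESeq2. Between the lines' levels they were 40 and 144 with no trend (0 and 0 of the 10), and 142 higher with DESeq2. None of the 10 was called higher with DESeq2 or a pseudocount of 4. The causes were not tested.

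Leaving out 1 library at a time gave 185 to 1986 genes higher and 7 to 1604 lower with knockdown (0 to 2 and 0 to 1 of the 10). Within H9 it gave 0 to 1084 and 0 to 670 (0 to 1 each), within HES2 0 to 633 and 0 to 155 (0 to 4 and 0), between hairpins 0 to 422 and 0 to 399 (0 to 1 and 0), between lines 10 to 778 and 82 to 1397 (0 to 6 and 0 to 1), and 0 for the difference of effects. Single genes that changed sign had these ranges. With knockdown, DKK1 ran from -0.33 to 2.28, LEF1 from -0.35 to 2.18, SP5 from -1.58 to 1.00, NKD1 from -0.55 to 0.86, AXIN2 from -1.20 to 0.25, WNT3 from -0.29 to 0.43 and FZD7 from -0.027 to 0.27, FZD7 from -0.26 to 0.44 within H9 and from -0.00071 to 0.30 within HES2. Between the lines' effects, TBXT ran from -0.42 to 0.22, WNT5A from -0.024 to 1.03 and FZD7 from -0.29 to 0.41. Between hairpins, SP5 ran from -0.98 to 1.39, DKK1 from -0.40 to 1.04, AXIN2 from -1.11 to 0.40, LEF1 from -1.11 to 0.53, NKD1 from -0.33 to 0.78 and WNT3 from -0.17 to 0.39. Between the lines' levels, SP5 ran from -0.24 to 1.41, DKK1 from -0.18 to 1.17 and AXIN2 from -0.67 to 0.32.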
